A study of Homo sapiens with 39 samples.

Results

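The genes described here form the ATF4 axis in irradiated U87-MG cells. They were chosen with earlier results of these data known, so counts of members beside shares of all genes are a description only. The set holds 39 genes of tRNA charging, amino acid supply and stress signalling, found by gene symbol. Of these, 38 had a probe on the arrays (51 probes in all), out of 20041 genes in the whole series, and where a gene had several probes the one with the highest mean signal stood for it. CARS1, the cysteinyl-tRNA synthetase, was not analysed here. The 38 genes fell into 4 lists, namely 16 cytoplasmic tRNA synthetases, 8 enzymes of amino acid synthesis and one-carbon metabolism, 5 amino acid transporters, and 9 regulators and stress effectors. A gene was tested when its signal rose above a background set by olfactory receptor probes in enough samples, which 37 of the 38 did among 11296 genes tested.

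ATF4 is a transcription factor whose mRNA is translated more when kinases phosphorylate the initiation factor eIF2, as happens when amino acids run short or unfolded protein collects in the endoplasmic reticulum. Much of this control acts on translation, so the level of ATF4 mRNA need not follow the activity of the protein. ATF4 binds C/EBP-ATF response elements and switches on genes for making, importing and charging amino acids, together with a second tier of stress regulators that includes DDIT3 (CHOP), ATF3 and TRIB3. Tumour cells are known to use this programme to keep protein synthesis going when nutrients are scarce.

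U87-MG is an established human glioblastoma line, grown here in minimum essential medium with fetal bovine serum. Cultures received a single acute dose of 8 or 16Gy from a Cs-137 source, or were sham irradiated alongside (0Gy), and RNA was collected on days 1, 4, 6 and 35. Days 1, 4 and 6 had 3 replicates at each dose, in which replicate 1 is the authors' average of technical duplicates. Day 35, which covers harvests a day either side, had 4 replicates at each dose that stand for 3 independent experiments, and these cells had been counted and replated at one density throughout. All 39 samples are of 1 line, and the irradiated day 35 cells descend from those that survived the dose.

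The values are log2 signals of Illumina bead arrays, normalized separately for the 27 samples of days 1 to 6 and the 12 of day 35. In the limma fits used for calls, no level was therefore compared between day 35 and the earlier days. The one-way analysis of variance of the study's methods, run as an alternative, pools all 39 samples, so its p also takes in differences between these sets. Background lay between 6.78 and 6.90 log2 units. All 5 mesenchymal markers (VIM, CD44, FN1, SPARC and TNC) were above background in 39 of 39 samples, and so were the glial and stem cell markers SOX9, OLIG2 and NES, while SOX2 was above it in 3 and the glial markers GFAP and S100B in 0. Of the epithelial markers EPCAM was above background in 23 samples, KRT19 in 1 and CDH1 in 0. Of the immune markers CD14 and CD68 were above it in 39, CD3E in 1 and PTPRC in 0, and of the endothelial markers PECAM1 in 10, VWF in 2 and CDH5 in 0. CD68 had a median of 11.86 log2 units, and EPCAM and PECAM1 medians of 6.89 and 6.79 near background. On day 35 the samples numbered 4 stood apart from the other samples at each dose. In bulk RNA such as this, fewer cells of a kind and less RNA per cell cannot be told apart.

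The element that ATF4 binds was searched in RefSeq promoters (GRCh38.p14, from 250 bases before to 50 after the start of the gene) because ATF4 is known to act through it. The motif was TGATGNAA on either strand. It was present in 13 of the 31 members on the arrays with a promoter in the table (41.94%), against 2.96% of 9132 genes tested with a promoter and 3.62% of all 35116 promoters. Among the lists it was present for 7 of 14 synthetases (CARS1 included), 1 of 5 amino acid and one-carbon enzymes, 3 of 4 transporters and 3 of 9 regulators. The members were chosen as genes of the ATF4 axis, so a higher share than among all genes was likely beforehand. A match is a description of the letters and not a binding site shown here. The stretches below, printed on the strand of the gene with the motif in capitals, belong to members whose values are given further on, and lie wholly before the start of the gene.
ASNS (chr7:97872449-97872496, minus strand): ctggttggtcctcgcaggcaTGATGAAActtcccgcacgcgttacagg
AARS1 (chr16:70289666-70289713, minus strand): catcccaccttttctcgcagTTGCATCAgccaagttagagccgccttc
GARS1 (chr7:30594825-30594872, plus strand): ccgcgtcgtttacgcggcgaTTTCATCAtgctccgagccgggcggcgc
SLC1A5 (chr19:46784884-46784931, minus strand): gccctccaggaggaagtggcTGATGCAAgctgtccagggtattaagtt
ATF3 (chr1:212565196-212565243, plus strand): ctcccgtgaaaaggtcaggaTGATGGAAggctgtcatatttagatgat
CHAC1 (chr15:40953242-40953289, plus strand): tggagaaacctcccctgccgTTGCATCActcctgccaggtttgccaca
ASNS, SLC1A5 and ATF3 carried the motif in the direction of the gene and AARS1, GARS1 and CHAC1 in the opposite one. Of the members that were called lower at 16Gy on day 4 or 6 and had a promoter in the table, 3 of 12 carried the motif in this window (25.0%). Among all members on the arrays with a promoter the share was 41.94%, and the difference was not tested.

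On days 4 and 6 irradiated cultures held less mRNA for amino acid synthesis than sham-irradiated cultures of the same day. ASNS (asparagine synthetase), PSAT1 and PHGDH (enzymes of serine synthesis) and PYCR1 (proline synthesis) fell at both doses on both days, by log2 fold changes from -0.68 to -1.54. Throughout, a gene is called when its fold change was over 1.5 and limma's p, adjusted by the Benjamini-Hochberg method across all 11296 genes, was under 0.10. At 8Gy on day 4, 6 of the 37 members were called lower (0.301% of all genes were) and 2 higher (1.49% of all genes). At 16Gy on day 4, 10 members were lower (1.57% of all genes) and 3 higher (3.10%). On day 6 the counts were 6 lower (1.20%) and 2 higher (2.04%) at 8Gy, and 12 lower (3.77%) and 3 higher (4.09%) at 16Gy. The dose comparisons of a day share their 0Gy samples. Over the 4 days 17 members were called at some point, 14 always lower and 3 (ATF3, DDIT3 and PPP1R15A) always higher, and 20 tested members were never called. The share of all genes called at some point was not counted, so these counts stand without it. With the one-way analysis of variance of the study's methods, which gives a gene a single p over all 12 groups with Holm adjustment, 28 of the 44 calls against 0Gy on days 4 and 6 were lost, among them all those of ASNS, PHGDH, PYCR1, the synthetases and the transporters. The 16 kept were those of PSAT1, ATF3 and PPP1R15A at both doses and of SHMT2 and DDIT3 at 16Gy, on both days. On these days the analysis of variance also made 1 call that limma did not, DDIT3 at 8Gy on day 6 (0.64). That single p also rests on the day 35 samples, where those numbered 4 differed from the others by amounts that varied between genes. Among genes with lost calls the mean log2 difference was 2.11 for ASNS, 1.79 for WARS1, 0.40 for QARS1 and -0.35 for EPRS1. Among genes with kept calls it was 1.07 for PSAT1 and 0.87 for SHMT2. Whether these differences bear on the lost calls was not tested. The Holm adjustment ran over all 20041 genes. Neither a kept nor a lost call is therefore a separate check of the differences on days 4 and 6.

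**Figure D1:**
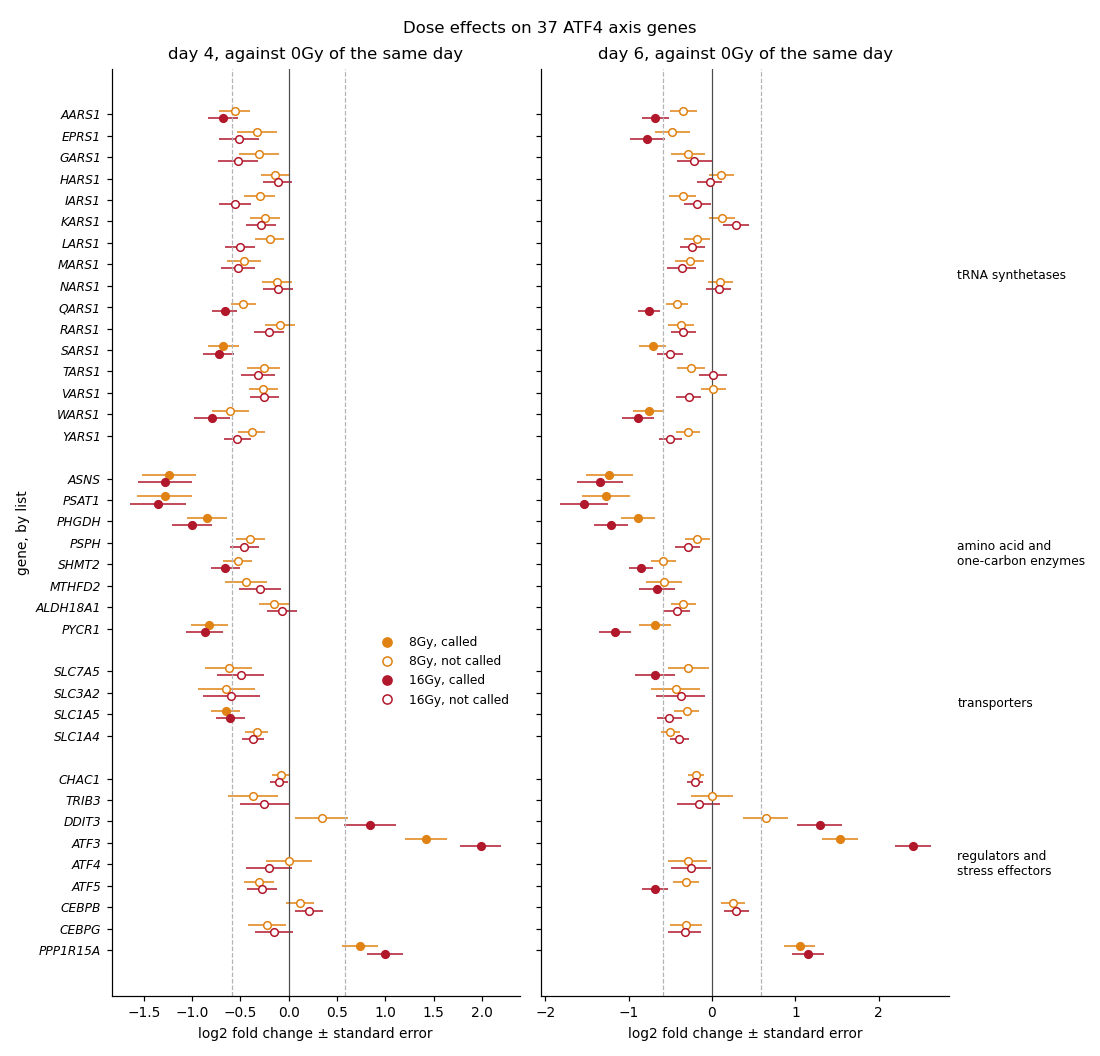
Log2 fold change of each of the 37 tested members at 8Gy (orange) and 16Gy (red) against 0Gy of the same day, on day 4 (left) and day 6 (right), with the standard error as a bar; filled points are called and dashed lines mark a fold of 1.5. ASNS, PSAT1 and PHGDH lie farthest to the left, down to -1.54 for PSAT1 at 16Gy on day 6, and ATF3 farthest to the right at 2.41.

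ASNS makes asparagine from aspartate and glutamine. Its log2 signal was 11.67, 12.24 and 11.95 in the 0Gy samples of day 4, 11.42, 10.65 and 10.08 in the 8Gy samples, and 11.09, 10.80 and 10.13 in the 16Gy samples. On day 6 it was 11.75, 12.64 and 12.10 at 0Gy, 11.58, 10.72 and 10.50 at 8Gy, and 11.17, 10.85 and 10.45 at 16Gy. Every irradiated sample was below every 0Gy sample of its day. The log2 fold changes on day 4 were -1.24 (standard error 0.28, adjusted p = 0.0104 by limma) at 8Gy and -1.28 (adjusted p = 0.00285) at 16Gy. On day 6 they were -1.23 (adjusted p = 0.00562) and -1.34 (adjusted p = 0.000898). The call at 8Gy on day 4 was lost without 8Gy replicate 3, where the log2 fold change became -0.98.

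PSAT1 transfers the amino group in serine synthesis. On day 4 its signal was 10.73, 11.49 and 10.97 at 0Gy, 10.30, 9.63 and 9.40 at 8Gy, and 10.27, 9.41 and 9.46 at 16Gy. On day 6 it was 10.97, 11.73 and 11.36 at 0Gy, 10.59, 9.59 and 10.07 at 8Gy, and 10.34, 9.57 and 9.54 at 16Gy. Again no irradiated sample reached a 0Gy sample of its day. The fall was 2.44-fold at 8Gy and 2.55-fold at 16Gy on day 4 and 2.41-fold and 2.91-fold on day 6, with adjusted p by limma of 0.00983, 0.00225, 0.00563 and 0.000289. At 8Gy on day 4 the call was lost without 0Gy replicate 2 (log2 fold change -1.07) or without 8Gy replicate 3 (-1.11).

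PHGDH catalyses the first committed step from glycolysis to serine. Its signal on day 4 was 13.50, 13.68 and 13.68 at 0Gy, 13.26, 12.50 and 12.57 at 8Gy, and 12.68, 12.74 and 12.44 at 16Gy. On day 6 it was 13.64, 13.91 and 13.67 at 0Gy, 13.19, 12.53 and 12.84 at 8Gy, and 12.86, 12.48 and 12.25 at 16Gy. Every irradiated sample was below every 0Gy sample of its day, while the 8 and 16Gy samples overlapped each other. The log2 fold changes were -0.84 and -0.999 on day 4 and -0.89 and -1.21 on day 6 (standard error 0.20 each), with adjusted p by limma of 0.0197, 0.00149, 0.00647 and 8.34e-05. At 8Gy on day 4 PHGDH rested on single samples, since leaving out replicate 2 or 3 at 0Gy (-0.79 and -0.81) or at 8Gy (-0.71 and -0.73) ended the call.

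Among the other enzymes, PYCR1 fell by log2 fold changes of -0.82 and -0.87 on day 4 and -0.68 and -1.17 on day 6 at 8 and 16Gy. At 16Gy on day 6 its samples lay between 7.82 and 8.68, against 9.23 to 9.96 at 0Gy. SHMT2, the mitochondrial serine hydroxymethyltransferase, was called at 16Gy on both days (-0.66 and -0.85), and MTHFD2, a mitochondrial folate enzyme, at 16Gy on day 6 (-0.66). PSPH, the last enzyme of serine synthesis, and ALDH18A1 in proline synthesis were not called, with log2 fold changes at 16Gy of -0.46 and -0.07 on day 4 and -0.29 and -0.42 on day 6. The median over the 8 enzymes was -0.76 at 16Gy on day 4 and -1.01 on day 6, against -0.03 over all genes tested on either day, and all 8 had a negative value on both days. The PYCR1 call at 8Gy on day 4 was lost without 0Gy replicate 3 (-0.70) or 8Gy replicate 3 (-0.65). On day 6 at 8Gy it ended when 0Gy replicate 2 (-0.54), 0Gy replicate 3 (-0.64) or 8Gy replicate 3 (-0.58) was left out. SHMT2 at 16Gy on day 4 was lost without 0Gy replicate 3 (-0.58), and MTHFD2 at 16Gy on day 6 without 0Gy replicate 2 (-0.57) or 16Gy replicate 2 (-0.53) or 3 (-0.54).

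The tRNA synthetases, which attach each amino acid to its tRNA, had smaller median differences than the enzymes, which were not tested against each other. At 16Gy on day 4 all 16 had a negative log2 fold change, with a median of -0.52, and 4 were called lower, namely WARS1 (tryptophan, -0.79), SARS1 (serine, -0.72), AARS1 (alanine, -0.68) and QARS1 (glutamine, -0.66). By adjusted p alone 8 of the 16 passed as lower, where 7.73% of all genes did. On day 6 at 16Gy the 4 called were WARS1 (-0.88), EPRS1 (glutamate and proline, -0.77), QARS1 (-0.76) and AARS1 (-0.68), the median was -0.31, and 6 of 16 passed by adjusted p alone, where 13.5% of all genes did. At 8Gy the calls were SARS1 on day 4 (-0.68) and SARS1 and WARS1 on day 6 (-0.71 and -0.76).

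WARS1 is also known to be induced by interferon, apart from its role in charging tRNA. Its samples on day 4 lay at 10.74, 10.81 and 10.87 at 0Gy and 10.22, 10.17 and 9.65 at 16Gy, and a second WARS1 probe gave a difference of -1.01 on day 4 and -0.80 on day 6 at 16Gy. QARS1 samples on day 4 lay at 12.08, 12.15 and 12.27 at 0Gy and 11.53, 11.56 and 11.43 at 16Gy. In neither gene did the groups overlap. HARS1, NARS1 and RARS1 (histidine, asparagine and arginine) had values at 16Gy between -0.20 and -0.11 on day 4, and KARS1 (lysine) stood at -0.28 on day 4 and 0.29 on day 6. AARS1 at 16Gy was lost on day 4 without 16Gy replicate 3 (-0.56) and on day 6 without 0Gy replicate 2 (-0.54) or 16Gy replicate 3 (-0.56). At 8Gy, SARS1 was lost on day 4 without 0Gy replicate 3 (-0.60) and on day 6 without 0Gy replicate 2 (-0.50) or 8Gy replicate 3 (-0.56), and WARS1 on day 6 without 0Gy replicate 2 (-0.57).

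Of the transporters, SLC1A5, which imports glutamine and other neutral amino acids, was called lower on day 4 at 8Gy (-0.65, adjusted p = 0.0124 by limma) and at 16Gy (-0.61, adjusted p = 0.00822). SLC7A5, the light chain of the large neutral amino acid exchanger LAT1, was called at 16Gy on day 6 (-0.68, adjusted p = 0.0479). Its heavy chain SLC3A2 had values of -0.65 and -0.59 on day 4 and -0.44 and -0.37 on day 6 with a standard error of 0.30 and was not called. SLC1A4, a transporter of serine and alanine, lay near background, with 3 of its 6 irradiated samples of day 4 above it, and had values from -0.50 to -0.33 on these days, which passed by adjusted p alone at 16Gy on both days but were under the fold limit. SLC7A11, which imports cystine, was above background in 0 of 9 samples on day 1 and in 1 of 4 at each dose on day 35 and was not tested. The SLC1A5 calls were lost without 8Gy replicate 3 (-0.58) at 8Gy, and without 0Gy replicate 2 (-0.58) or 16Gy replicate 2 (-0.56) at 16Gy. The SLC7A5 call ended when 0Gy replicate 2 (-0.55), 0Gy replicate 3 (-0.67) or 16Gy replicate 3 (-0.54) was left out.

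Of the 9 regulators, 3 went the other way. ATF3, a stress-induced transcription factor, had signals on day 4 of 8.55, 8.10 and 7.95 at 0Gy, 9.77, 10.01 and 9.09 at 8Gy, and 10.25, 10.50 and 9.79 at 16Gy. On day 6 they were 8.87, 8.26 and 8.01 at 0Gy, 10.03, 10.22 and 9.49 at 8Gy, and 10.65, 11.09 and 10.62 at 16Gy. Every 8Gy and 16Gy sample was above every 0Gy sample, and on day 6 every 16Gy sample was also above every 8Gy sample. ATF3 rose 2.68-fold at 8Gy and 3.95-fold at 16Gy on day 4, and 2.90-fold and 5.30-fold on day 6 (adjusted p between 1.56e-09 and 0.000121 by limma). These calls were kept without any 1 sample.

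PPP1R15A (GADD34) brings a phosphatase to eIF2 and so ends the stress signal. On day 4 it measured 11.23, 10.91 and 10.64 at 0Gy, 11.77, 11.73 and 11.50 at 8Gy, and 11.72, 12.06 and 11.98 at 16Gy. On day 6 it measured 10.69, 10.90 and 10.48 at 0Gy, 11.55, 11.97 and 11.70 at 8Gy, and 11.69, 12.17 and 11.65 at 16Gy. No irradiated sample overlapped the 0Gy samples on either day. Its log2 fold changes were 0.74 and 0.99 on day 4 and 1.05 and 1.15 on day 6, with adjusted p by limma of 0.028, 0.000603, 0.00045 and 4.98e-05. Leaving out 0Gy replicate 2 (0.67), 0Gy replicate 3 (0.63) or 8Gy replicate 1 (0.67) ended the 8Gy call of PPP1R15A on day 4.

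DDIT3 encodes CHOP, a transcription factor of the C/EBP family linked to cell death under prolonged stress. On day 4 its signal was 10.07, 10.05 and 9.55 at 0Gy, 10.34, 10.68 and 9.66 at 8Gy, and 10.87, 10.80 and 10.50 at 16Gy. On day 6 it was 9.78, 10.58 and 9.14 at 0Gy, 10.77, 10.80 and 9.85 at 8Gy, and 11.23, 11.39 and 10.74 at 16Gy. The 16Gy samples lay above all 0Gy samples on both days, and the 8Gy samples overlapped them. DDIT3 rose at 16Gy by 0.84 on day 4 (adjusted p = 0.0453) and 1.29 on day 6 (adjusted p = 0.000977), whereas at 8Gy the values of 0.34 and 0.64 did not pass (adjusted p = 0.71 and 0.175, all by limma). The day 4 call at 16Gy ended on leaving out replicate 2 or 3 at 0Gy (0.83 and 0.75) or replicate 1 or 3 at 16Gy (0.76 and 0.86).

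ATF4 mRNA itself was not called against 0Gy on any day. On day 4 its signal was 11.62, 12.75 and 12.58 at 0Gy, 12.64, 12.29 and 12.02 at 8Gy, and 12.54, 11.99 and 11.79 at 16Gy, and on day 6 it was 12.28, 13.01 and 12.53 at 0Gy, 12.68, 12.26 and 12.01 at 8Gy, and 12.77, 12.45 and 11.86 at 16Gy. The groups overlapped throughout, and the 16Gy values were -0.21 on day 4 and -0.25 on day 6 (standard error 0.24). The arrays held 3 ATF4 probes that differed, with 16Gy minus 0Gy differences on day 4 of -0.21 for the brightest, -0.78 for the second and 0.20 for the third. Protein levels of ATF4 were not measured.

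TRIB3, a pseudokinase that restrains ATF4 and CHOP, measured 9.78, 9.91 and 9.70 at 0Gy, 9.85, 9.37 and 9.08 at 8Gy, and 9.72, 9.67 and 9.26 at 16Gy on day 4, and on day 6 9.63, 10.46 and 9.25 at 0Gy, 10.09, 9.98 and 9.28 at 8Gy, and 10.08, 9.84 and 8.95 at 16Gy. The groups overlapped and TRIB3 was not called (-0.25 and -0.16 at 16Gy). CHAC1, which breaks down glutathione, was above background in 0 of 9 samples on day 1 and measured 6.89, 6.91 and 6.80 at 0Gy, 6.87, 6.71 and 6.78 at 8Gy, and 6.78, 6.91 and 6.60 at 16Gy on day 4. It did not exceed 7.13 on day 6. Its groups overlapped near background, with values at 16Gy of -0.10 and -0.20 on these days. ATF5, a relative of ATF4 under similar translational control, was called lower at 16Gy on day 6 (-0.68, adjusted p = 0.00208 by limma), a call lost without 0Gy replicate 2 (-0.57). CEBPB and CEBPG, partners of ATF4, had values at 16Gy of 0.21 and -0.15 on day 4 and 0.29 and -0.33 on day 6 and were not called.

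**Figure D2:**
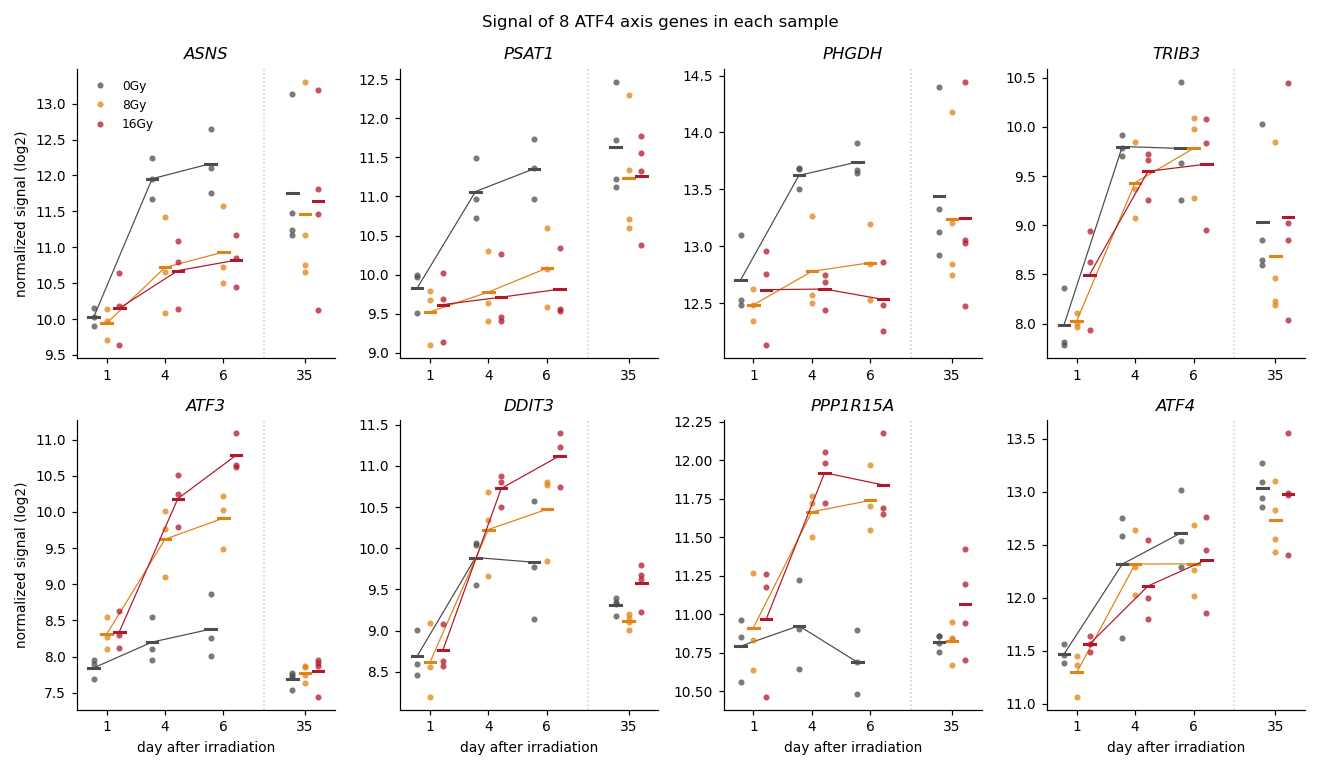
Normalized log2 signal of 8 members in each sample (points) with the group mean (bars, joined by lines up to day 6) on days 1, 4, 6 and 35, at 0Gy (grey), 8Gy (orange) and 16Gy (red); the dotted line separates day 35, which was normalized on its own. ASNS, PSAT1 and PHGDH climb after day 1 mainly at 0Gy, ATF3 and PPP1R15A climb mainly in irradiated cells, DDIT3 and TRIB3 climb at every dose, and on day 35 the doses overlap, apart from DDIT3 at 8 and 16Gy, with 1 high sample at each dose for ASNS, PHGDH and TRIB3.

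One day after irradiation no member was called between doses. With limma 0 of 37 members were called at 8Gy (0.133% of all genes were) and 0 at 16Gy (1.22%). At an unadjusted p under 0.05 there were 3 and 5 members, counts given without their share of all genes. The one-way analysis of variance of the study's methods also gave 0 at both doses. At 16Gy, ATF3 had a log2 fold change of 0.50 (adjusted p = 0.258) and TRIB3 of 0.51 (adjusted p = 0.337). ASNS stood at 9.90, 10.02 and 10.16 at 0Gy, 9.72, 9.97 and 10.14 at 8Gy, and 9.64, 10.64 and 10.18 at 16Gy on that day, and the groups overlapped. At 16Gy the count became 1 without replicate 1 of the 16Gy cultures.

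Whether the effect of dose itself changed with time was tested as an interaction. From day 1 to day 4 the 16Gy effect went down in 5 members (2.33% of all genes did), namely ASNS (-1.40, adjusted p = 0.0423), QARS1 (-1.04, adjusted p = 0.00115), WARS1 (-0.99), PHGDH (-0.92) and SARS1 (-0.86), and went up in ATF3 (1.48, adjusted p = 0.00516) and PPP1R15A (0.82), where 2.28% of all genes did. For the 8Gy effect over the same days 0 members were called (0.390% of all genes). At an unadjusted p under 0.05 there were 10, a count given without its share of all genes. From day 4 to day 6 it was 0 for the 8Gy effect (0% of all genes) and 0 for the 16Gy effect (0.0620%), with 0 and 1 members at an unadjusted p under 0.05. Leaving out each of the 12 samples in turn ended the call of PHGDH in 8 fits, of PPP1R15A in 7, of ASNS in 5, of WARS1 in 3 and of SARS1 in 1, and those of QARS1 and ATF3 in 0. With no mean-variance trend PHGDH and PPP1R15A were lost, and with the mean of all probes PHGDH, PPP1R15A and ATF3. The count of 7 at 16Gy became 4 without the day 1 sample of 0Gy replicate 1 and 3 without the day 1 sample of 16Gy replicate 3, the day 4 sample of 0Gy replicate 3 or the day 4 sample of 16Gy replicate 3.

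Few differences between the 8 and 16Gy samples were called in these genes. Between 16Gy and 8Gy limma called 0 members on day 1 (0% of all genes), 0 on day 4 (0.0177%) and 0 on day 35 (0%), with 0, 1 and 1 members at an unadjusted p under 0.05. On day 6 ATF3 was the single member called, higher at 16Gy by 0.87 (adjusted p = 0.065), where 0.301% of all genes were called higher. Leaving out replicate 3 at 8Gy (0.73), or replicate 2 (0.77) or 3 (0.87) at 16Gy, ended that call. All 8 amino acid and one-carbon enzymes had a value below 0 on day 6, between -0.49 and -0.08, and none was called. The standard errors of these differences equal those of the comparisons with 0Gy, 0.28 for ASNS and 0.29 for PSAT1, so the values of -0.11 for ASNS and -0.27 for PSAT1 on day 6 were smaller than 1 standard error.

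The fall in irradiated cells was a difference from sham-irradiated cultures that were themselves changing. In 0Gy cultures 0 members were called lower on day 4 than on day 1, a count given without its share of all genes. Called higher were 16 of the 37 members (3.66% of all genes were). They were ASNS (1.93), TRIB3 (1.82), PYCR1 (1.58), SLC3A2 (1.56), PSAT1 (1.24), DDIT3 (1.20), SLC7A5 (1.18), WARS1 (1.17), GARS1 (glycine, 0.93), AARS1 (0.92), PHGDH (0.92), ATF4 (0.85), SARS1 (0.79), MARS1 (methionine, 0.68), ATF5 (0.64) and MTHFD2 (0.59), as log2 changes. ASNS thus went from 9.90, 10.02 and 10.16 on day 1 to 11.67, 12.24 and 11.95 on day 4, a 3.80-fold rise (adjusted p = 2.6e-05 by limma) with no overlap. TRIB3 went from 7.81, 7.78 and 8.36 to 9.78, 9.91 and 9.70 (3.52-fold, adjusted p = 2.1e-05). ATF4 went from 11.56, 11.45 and 11.38 to 11.62, 12.75 and 12.58 (adjusted p = 0.0141). Between days 4 and 6 of the 0Gy cultures 0 members were called by limma (0% of all genes), with 1 at an unadjusted p under 0.05.

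Of the 16 calls in 0Gy cultures, 4 depended on single samples. MTHFD2 was lost without the day 1 sample of 0Gy replicate 1 (0.54), 2 (0.63) or 3 (0.59) or the day 4 sample of 0Gy replicate 1 (0.64) or 3 (0.48), ATF4 without the day 4 sample of 0Gy replicate 2 (0.63) or 3 (0.64), ATF5 without the day 1 sample of 0Gy replicate 2 (0.52) or the day 4 sample of 0Gy replicate 1 (0.57), and MARS1 without the day 4 sample of 0Gy replicate 2 (0.56). Of the 16, 10 (AARS1, ASNS, ATF5, MTHFD2, PHGDH, PSAT1, PYCR1, SARS1, SLC7A5 and WARS1) were among the 14 members lower at 16Gy on day 4 or 6. That count compares groups that share the 0Gy samples of day 4 and is given as a description.

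Irradiated cultures were compared over the same interval, a comparison added after the data were seen. At 8Gy 7 members were called higher on day 4 than on day 1 (2.02% of all genes), namely DDIT3 (1.61), TRIB3 (1.41), ATF3 (1.31), SLC3A2 (1.16), ATF4 (1.02), PYCR1 (0.95) and PPP1R15A (0.75). At 16Gy 7 were called (2.81% of all genes), namely DDIT3 (1.96), ATF3 (1.84), SLC3A2 (1.17), TRIB3 (1.05), PPP1R15A (0.95), PYCR1 (0.90) and CEBPG (0.61). At both doses 0 members were called lower, a count given without its share of all genes. PSAT1 and PHGDH, which rose in 0Gy cultures, had values at 16Gy of 0.10 (adjusted p = 0.891 by limma) and 0.01 (adjusted p = 0.994), with standard errors of 0.29 and 0.20. ASNS had a value of 0.52 at 16Gy (adjusted p = 0.265) and no synthetase was called at either dose. At 8Gy the count became 4 without the day 1 sample of 8Gy replicate 2, through the loss of ATF4 (0.87), PPP1R15A (0.65) and SLC3A2 (1.02). SLC3A2 was also lost there without the day 4 sample of 8Gy replicate 1 (0.92) or 2 (1.14). At 16Gy it became 4 without the day 1 sample of 16Gy replicate 1, through CEBPG (0.54), SLC3A2 (0.92) and TRIB3 (0.70). CEBPG was also lost without the day 1 sample of 16Gy replicate 2 (0.56) or the day 4 sample of 16Gy replicate 1 (0.46).

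**Figure D3:**
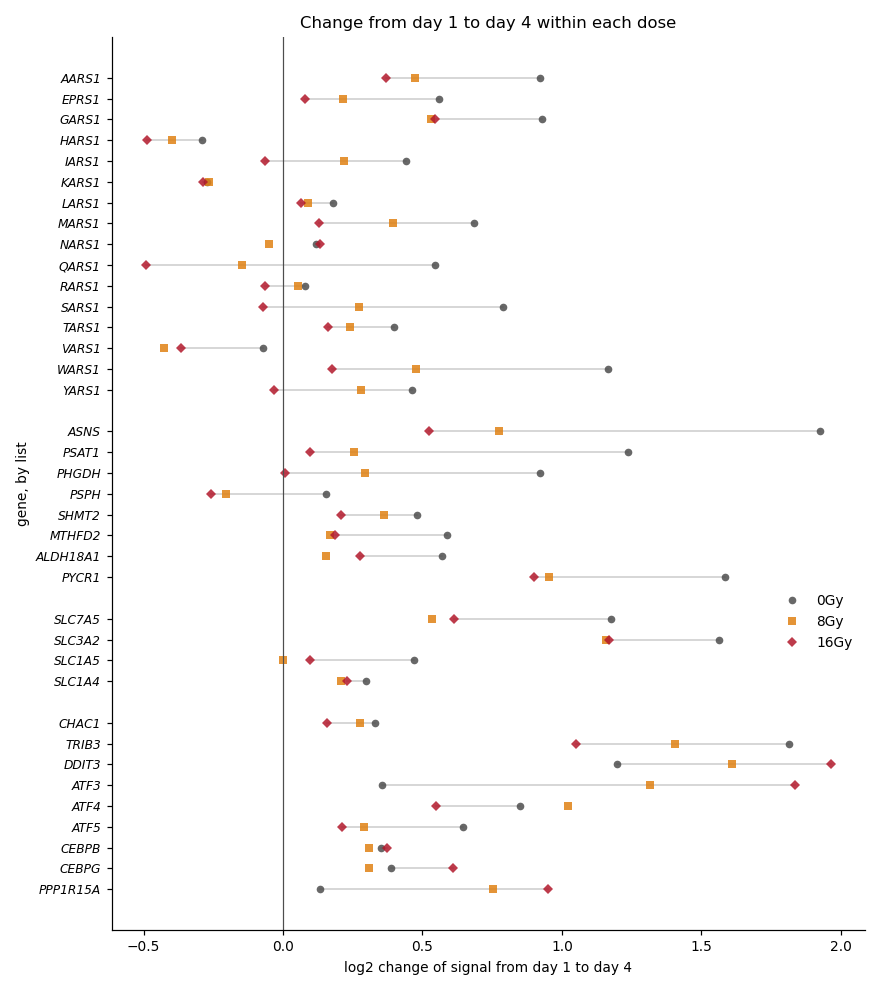
Log2 change in signal from day 1 to day 4 for each of the 37 tested members within 0Gy (grey circles), 8Gy (orange squares) and 16Gy (red diamonds) cultures, with a line joining the 0Gy and 16Gy values. Enzymes and most synthetases sit farthest to the right at 0Gy, such as ASNS at 1.93 against 0.52 at 16Gy, while ATF3 reads 0.36 at 0Gy and 1.84 at 16Gy.

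On day 35 no member was called between doses. With limma 0 of 37 members were called at 8Gy (0% of all genes) and 0 at 16Gy (0.00885%), with 0 members at an unadjusted p under 0.05 in each, and the one-way analysis of variance also gave 0. With the replicate number as a block, and without the samples numbered 4, the counts were 0 as well. Log2 fold changes over the members ran from -0.40 to 0.18 at 8Gy and from -0.37 to 0.28 at 16Gy, and without the samples numbered 4 from -0.48 to 0.20 and from -0.28 to 0.23. ATF3 measured 7.78, 7.54, 7.72 and 7.75 at 0Gy and 7.91, 7.87, 7.95 and 7.45 at 16Gy, a difference of 0.10 with a standard error of 0.13. DDIT3 measured 9.40, 9.34, 9.33 and 9.18 at 0Gy and 9.23, 9.63, 9.80 and 9.67 at 16Gy (0.27, adjusted p = 0.857). PPP1R15A measured 10.76, 10.86, 10.82 and 10.86 at 0Gy and 10.70, 10.94, 11.20 and 11.42 at 16Gy (0.24, adjusted p = 0.857). The 16Gy samples of all 3 genes, which were higher on days 4 and 6, overlapped the 0Gy samples on day 35. DDIT3 at 8Gy (9.01, 9.11, 9.21 and 9.16) lay below the 16Gy samples, by 0.46 with an adjusted p of 0.827.

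For many amino acid genes the day 35 samples of a dose differed more among themselves than the doses did. ASNS measured 11.23, 11.48, 11.17 and 13.13 at 0Gy, 10.65, 11.17, 10.75 and 13.31 at 8Gy, and 10.13, 11.82, 11.46 and 13.19 at 16Gy. The sample numbered 4 was the highest at each dose, and the difference between 8 and 0Gy was -0.28 with a standard error of 0.68 in the fit without the replicate number. Adding the replicate number as a term brought the standard error to 0.22, and without the samples numbered 4 the difference was -0.44 (standard error 0.30). PSAT1 was lower at 8Gy than in the 0Gy sample of the same number in 4 of 4 pairs, by log2 differences of -0.63, -0.39, -0.40 and -0.16 for numbers 1 to 4. Over the 37 members, 12 were lower in 4 of 4 pairs at 8Gy, ATF4, PHGDH and TRIB3 among them, and 1 was higher. At 16Gy 0 were lower and 3 higher in 4 of 4 pairs. The share of all genes was not counted for pairs, and the labels do not say outright that equal numbers mark 1 experiment. With the replicate number as a term limma gave 3 members an unadjusted p under 0.05 at each dose, a count given without its share of all genes. PSAT1 (0.042) and ATF4 (0.0222) were among them at 8Gy, and neither passed after adjustment. TRIB3 measured 8.85, 8.65, 8.60 and 10.03 at 0Gy, 8.23, 8.47, 8.18 and 9.85 at 8Gy, and 8.04, 8.85, 9.02 and 10.45 at 16Gy, and again the sample numbered 4 was the highest at each dose. CHAC1, near background on the earlier days, measured 7.98, 7.67 and 8.53 in the samples numbered 4 and at most 7.34 in the others.

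The samples numbered 4 were the highest of their dose at all 3 doses in 24 of the 37 members (64.9%), where this held for 20.2% of the 11296 genes tested. It held for all 8 amino acid and one-carbon enzymes, all 4 tested transporters, 8 of 16 synthetases and, among the 9 regulators, for ATF4, ATF5, TRIB3 and CHAC1. The mean difference between the samples numbered 4 and the others was over 1 log2 unit in 13 of 37 members and in 141 of 11296 genes (1.25%), and its median was 0.73 over members and 0.0051 over all genes. The largest were ASNS (2.11), WARS1 (1.79), SLC1A5 (1.68), SLC7A5 (1.68) and TRIB3 (1.56). DDIT3, ATF3 and PPP1R15A, the members that rose on days 4 and 6, had mean differences of -0.0024, -0.15 and 0.18. IARS1 (isoleucine) differed between doses, in that its sample numbered 4 was 0.38 and 0.76 above the mean of the others at 0 and 8Gy and -1.53 from it at 16Gy. Its 16Gy log2 fold change was -0.36 with all samples and 0.12 without those numbered 4, called in neither. The samples numbered 1 were the lowest at all doses in 11 members (29.7%), where this held for 7.93% of all genes. These samples were singled out after their values were seen, so no test is given, and the sources used here do not say which of the 4 replicates share an experiment.

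**Figure D4:**
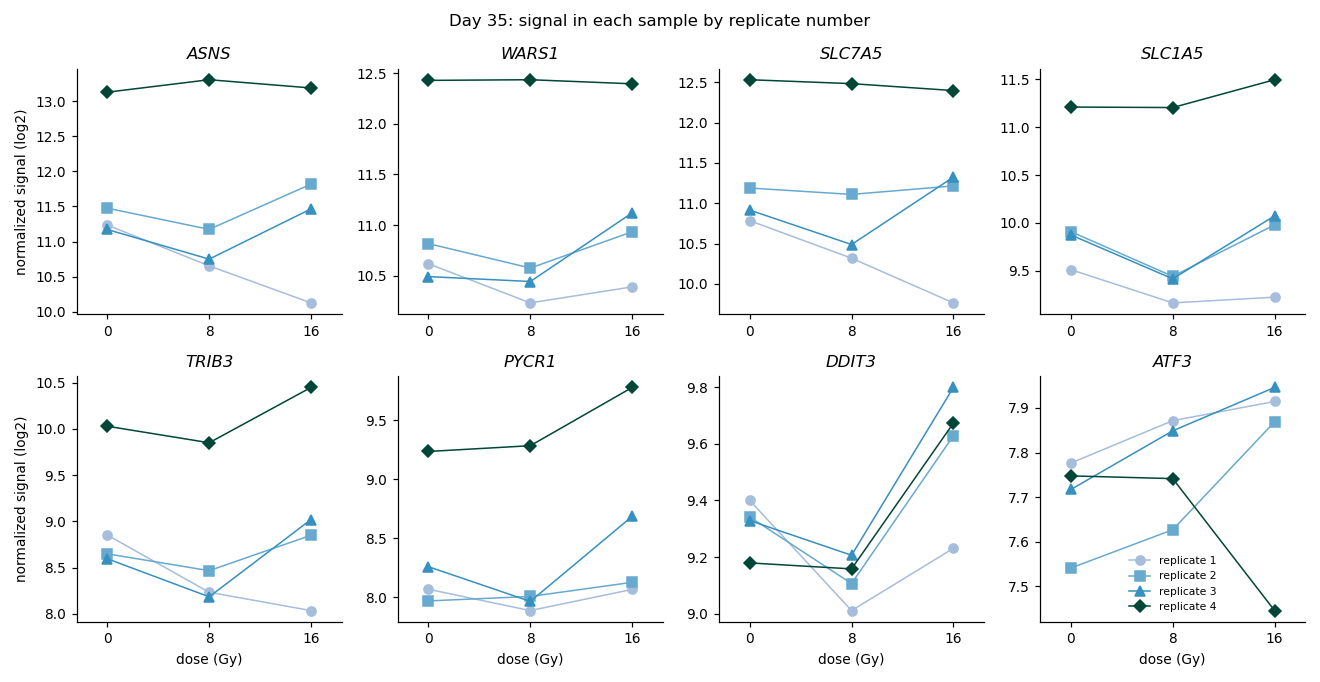
Normalized log2 signal on day 35 at 0, 8 and 16Gy for 8 members, with 1 line for each replicate number. The line of replicate 4 (dark diamonds) lies above the others at all 3 doses for ASNS, WARS1, SLC7A5, SLC1A5, TRIB3 and PYCR1, and within or below them for DDIT3 and ATF3.

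Neighbouring genes of the pathway were described from lists that hold no member. Of 21 tested genes known as ATF4 targets outside the members, 4 were called lower and 2 higher at 16Gy on day 4 (1.57% and 3.10% of all genes were), and 5 lower and 2 higher on day 6 (3.77% and 4.09%). CBS, an enzyme of cysteine synthesis, fell by log2 fold changes of -1.25 and -1.46 at 16Gy on days 4 and 6, and SLC6A9, a glycine transporter, by -1.07 and -1.35. GDF15, a secreted stress cytokine that p53 also controls, rose at 16Gy by 2.11 on day 1, 1.24 on day 4 and 1.74 on day 6. In 0Gy cultures 11 of the 21 were called higher on day 4 than on day 1 (3.66% of all genes), and on day 35 the samples numbered 4 were highest at all doses in 11 of the 21 (20.2% of all genes), with a mean difference of 2.48 for CBS, 2.08 for NUPR1 and 1.79 for SLC6A9. DDIT4, a brake on mTORC1, rose on day 1 at both doses (1.04 at 8Gy and 1.01 at 16Gy).

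Of 12 genes of the eIF2 kinases and the eIF2 pathway, 0 were called by limma at 16Gy on day 4 (2 passed by adjusted p alone, both lower) and 1 on day 6, EIF2AK4 (GCN2, the kinase that senses uncharged tRNA), with -0.59, where 3.77% of all genes were called lower. Of 16 mitochondrial synthetases only SARS2 was called at 16Gy, with -0.65 on day 4 and -0.75 on day 6 (1.57% and 3.77% of all genes were called lower), and the median of the list was -0.14 and -0.08, against -0.52 and -0.31 for the cytoplasmic synthetases. The difference between these lists was not tested. The other 2 genes tested of cytosolic synthetases and their scaffold had medians of 0.13 on day 4 and 0.01 on day 6 at 16Gy, and 0 were called.

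The ATF6 and XBP1 arms of the unfolded protein response, which act beside ATF4, also rose in 0Gy cultures and also had genes called lower after irradiation. Of their 16 tested genes 12 were called higher on day 4 than on day 1 at 0Gy (3.66% of all genes), led by HSPA5 (BiP, the main chaperone of the endoplasmic reticulum) with 2.03, XBP1 with 1.35 and SDF2L1 with 1.25. At 16Gy 4 were called lower on day 4 (1.57% of all genes) and 1 on day 6 (3.77%), with CRELD2 at -0.60 and -0.94. At 8Gy CRELD2 (-0.74) and PDIA4 (-0.66) were called lower on day 4, where 0.301% of all genes were. On day 35 the samples numbered 4 were the highest at all doses in 0 of these 16 genes (20.2% of all genes), and HSPA5 differed there by a mean of 0.27, while 24 of 37 ATF4 axis members were highest. The difference between the lists was not tested.

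Where a member had more than 1 probe above background, the second probe of ASNS (-0.70 and -1.11 at 16Gy on days 4 and 6) and of SLC3A2 (-0.71 and -0.48) had the same sign as the first. The ATF4 probes differed in sign, with -0.25, -0.38 and 0.10 at 16Gy on day 6. For PSPH the second probe had the sign of the first at 16Gy on both days. At 8Gy on day 6 it gave 0.04 against -0.18. The second probes of PSAT1, IARS1 and VARS1 and both further probes of ATF3 were above background in 0 to 2 of 39 samples. The further probes of PYCR1 were above it in 22 and 10 samples and gave -0.49 and -0.13 at 16Gy on day 4. On day 6 they gave 0.05 and -0.04 at 8Gy, where the brightest probe gave -0.68. At 16Gy on day 6 they gave -0.17 and -0.10, against -1.17 for the brightest. With the mean of all probes of a gene in place of the brightest, the calls of PYCR1 at both doses and of ATF3 at 8Gy were lost, with log2 fold changes of -0.50 and -0.48 for PYCR1 at 16Gy and 0.48 and 0.58 for ATF3 at 8Gy on days 4 and 6.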

How the data were processed

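The members and lists were chosen with earlier results of these data known. The deposited values are log2 signals of 39 samples on 47300 probes. The authors exported signals with GenomeStudio, quantile normalized and took log2 separately for the 27 samples of days 1 to 6 and the 12 of day 35, averaged the technical duplicates of replicate 1, and adjusted the earlier samples with ComBat for batches that are not given in the sources used here. Array results carry no read depth, and the number of arrays limits the precision. A table of non-normalized signals on 48 arrays (96 columns) was not used, because its column names do not show the samples.

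Probes were named from the platform annotation (30100 with 1 gene, 8 with several, 17192 with none). The background of a sample was the signal that a share of 0.05 of 455 olfactory receptor probes exceeded, and a gene was tested when all samples of some group lay above it. A gene was called with limma (version 3.58.1 in R 4.3.3, lmFit and eBayes with a trend) when its fold was over 1.5 and its p, adjusted by Benjamini-Hochberg across the genes tested, under 0.10. The replicate number was a term on days 1 to 6, since the labels give each experimental replicate its own sham-irradiated culture, and not on day 35, where 4 replicates stand for 3 experiments. The labels do not say outright that equal numbers mark 1 experiment. On day 35 deviations of samples with the same number correlated with r of at least 0.116 over all genes in every pair. On days 1 to 6 the lowest correlation was -0.579. The mean correlation for a replicate number ran from 0.28 to 0.71 on day 35. On days 1 to 6 it ran from -0.13 (day 4) to 0.39 (day 6). Called members were named with their fold changes. Values in every sample were given for the 3 called members with the largest rise and fall in a comparison and for ATF4, DDIT3, ASNS, CHAC1 and TRIB3. From other lists up to 3 called genes were named per comparison. The fit was tested on simulated data. The limma p-values weigh a difference against the spread between samples of a group, pooled over the groups of a fit. On days 1 to 6 that is the spread left after ComBat and the replicate term. On day 35 the 4 replicates were fitted as independent, though they stand for 3 experiments.

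Alternatives were another treatment of the replicate number, no filter, the mean of a gene's probes, no floor on low signals, array medians subtracted, no fold limit, no trend, each day alone, the methods' one-way analysis of variance with Holm adjustment over 12 groups, and leaving out each sample. Leaving out the samples numbered 4, and the comparisons over time at 8 and 16Gy, were added after the data were seen.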

Additional observations from a re-analysis of the deposited data

Results flagged for a closer look

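In 19 of 114 sets of 4 day 35 samples (1 member at 1 dose), 1 sample lay farther from the other samples than Dixon's 95% limit for the gap over the range allows. Chance flags about 1 set in 20 where sets are independent, but these share the same 12 arrays, so their number is a description only. The sample numbered 4 was the extreme one in 16 of the 19. SLC7A11 lay near background and was not among the genes tested. At 0Gy the sample numbered 4 was the highest for MARS1 (0.911), SARS1 (0.835), WARS1 (0.832), YARS1 (0.894), ASNS (0.845), PSPH (0.946), SLC7A11 (0.980) and ATF5 (0.908). At 8Gy it was the highest for WARS1 (0.844), PSPH (0.908), PYCR1 (0.914), SLC7A11 (0.860), SLC1A5 (0.864) and TRIB3 (0.830). At 16Gy it was the highest for HARS1 (0.843) and the lowest for ATF3 (0.846). The others were 0Gy replicate 3 for HARS1 (highest, 0.849) and TARS1 (lowest, 0.854) and 8Gy replicate 1 for HARS1 (lowest, 0.874).

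The effect of 16Gy differed between day 1 and day 4, by the interaction in limma, for 7 members. On the log2 scale it went down for ASNS (-1.40), QARS1 (-1.04), WARS1 (-0.99), PHGDH (-0.92) and SARS1 (-0.86) and up for ATF3 (1.48) and PPP1R15A (0.82). Of the 12 fits that each left out 1 sample, the call was lost in 8 for PHGDH, 7 for PPP1R15A, 5 for ASNS, 3 for WARS1, 1 for SARS1 and 0 for QARS1 and ATF3.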

How the results depend on the processing

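Counts are members called. With the one-way analysis of variance in place of limma they were 3 and 5 at 8 and 16Gy on day 4 (8 and 13 by limma) and 4 and 5 on day 6 (8 and 15 by limma). ATF3, PPP1R15A and PSAT1 were called by both at both doses on both days. Shares of all genes are given for limma only and do not apply to the counts by analysis of variance. Without a fold limit 25 members rose in 0Gy cultures from day 1 to day 4, against 16. Between 16Gy and 8Gy on day 6 the count of 1 became 2 with each day fitted alone, 0 with the mean of all probes and 0 with no trend. The change of the 16Gy effect from day 1 to day 4 went from 7 to 4 with the mean of all probes. Leaving out 1 sample at a time gave 0 to 1 at 16Gy on day 1, 3 to 11 at 8Gy and 11 to 19 at 16Gy on day 4, 6 to 11 at 8Gy and 11 to 17 at 16Gy on day 6, and 0 to 1 for 16Gy against 8Gy on day 6. It gave 0 to 2 and 3 to 10 for the change of the 8Gy and 16Gy effects from day 1 to day 4. Over time it gave 14 to 17 in 0Gy, 4 to 10 in 8Gy and 4 to 8 in 16Gy cultures. Of the 44 member calls against 0Gy, 26 were kept without any 1 sample and 18 were lost in at least 1 such fit.

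Without the replicate block on days 1 to 6, 82 of 82 member calls were kept. With the replicate block on day 35 the counts were 0, so the pairing changed no call. It did change the precision, as the median standard error over members was 0.27 without the block and 0.13 with it at each dose. No log2 fold change of a called member reversed under any alternative run. With 3 samples a group the standard error was 0.28 for ASNS. Some changes over 1.5-fold were not called by limma, such as DDIT3 at 8Gy on day 6 (0.64, standard error 0.27) and SLC3A2 at 8Gy on day 4 (-0.65, standard error 0.30). Signals of SLC7A11, CHAC1 and SLC1A4 were near background.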
